A study of Mus musculus with 20 samples.

Results

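RNA of type 1 conventional dendritic cells (cDC1) was compared with RNA of B cells, both sorted from the spleen of wild type (WT) C57BL/6 mice on postnatal day 21. The comparison holds 8 of the 20 libraries of the series, 4 of WT cDC1 and 4 of WT B cells, chosen by their labels alone. The other 12 libraries come from mice labelled March1-/-, of which 4 of cDC1 and 4 of B cells serve here to repeat the contrast. By its title, the series asks how B cells of the marginal zone take membrane from dendritic cells and show MHC class II joined to complement C3. Per the labels' protocols, cells were sorted on a BD Influx to a purity of 95 to 99%, and sequencing used TruSeq libraries of RNA from RNeasy mini kits. No treatment is named in the labels. They give neither the number of mice behind a library nor whether the 4 libraries of a group stem from different mice, so the p-values rest on the spread between libraries, which may be technical in part.

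Both cell types take up antigen and show it to T cells on MHC class II, but by different routes. cDC1 engulf dying cells and bind actin laid bare on them with the product of Clec9a. They move antigens of such cells onto MHC class I for CD8 T cells (cross-presentation) and depend on the transcription factors IRF8 and BATF3. B cells catch antigen with the immunoglobulin of the B cell receptor, whose signalling chains are encoded by Cd79a and Cd79b, and keep their identity through PAX5 and EBF1.

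The libraries held 23312664 to 30089205 counts in WT cDC1 and 29627575 to 32751804 counts in WT B cells. Levels are given in CPM, the counts scaled to the TMM-corrected size of each library, as a mean ± SD over n = 4 libraries. Differences are log2 fold changes with WT cDC1 on top ± SE. A gene is said to be called, higher or lower when its Benjamini-Hochberg adjusted p in edgeR's quasi-likelihood test was under 0.05. Principal components were taken over the genes that varied most among these same 8 libraries. The first held 96.3% of the variance of those genes, a share that rests in part on their choice. It placed the cDC1 libraries at 120 to 123 and the B cell libraries at −125 to −119. In bulk RNA, fewer cells of a type and less RNA per cell cannot be told apart.

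The markers of each sort were present in its own libraries and near 0 in the other's. Xcr1, the receptor by which cDC1 follow the chemokine XCL1 (ENSMUSG00000060509, chromosome 9, 123852315 to 123862029, minus strand, GRCm38), stood at 834, 1077, 893 and 841 CPM in cDC1 and 1.02, 1.5, 1.23 and 1.17 CPM in B cells. Clec9a, a receptor for actin laid bare on dead cells (chromosome 6, 129408862 to 129424763, plus strand), stood at 724, 884, 829 and 928 CPM in cDC1 and 0.871, 2.56, 1.87 and 3.41 CPM in B cells. The groups lay far apart for both genes, at log2 fold changes of 9.53 ± 0.15 and 8.60 ± 0.25 (edgeR adjusted p = 2.16e-23 and 2.27e-17). Cd79a, whose product passes on the signal of surface immunoglobulin (chromosome 7, 24897381 to 24902197, plus strand), stood at 7.69, 9.16, 6.5 and 7.78 CPM in cDC1 and 1276, 1268, 1237 and 1212 CPM in B cells. Pax5, which holds B cell identity (chromosome 4, 44524757 to 44710487, minus strand), stood at 6.37, 7.23, 4.52 and 7.04 CPM in cDC1 and 1055, 967, 921 and 994 CPM in B cells. These genes were lower in every cDC1 library than in any B cell library, at −7.32 ± 0.14 and −7.28 ± 0.17 (edgeR adjusted p = 8.64e-22 and 1.55e-20).

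All 15 genes of a cDC1 list and all 5 of a list shared by conventional dendritic cells were higher in cDC1, and all 15 of a pan B cell list were lower. Over all genes tested, 34.9% were called higher and 36.2% lower in cDC1. Zbtb46, a factor gene typical of conventional dendritic cells, averaged 255 ± 12.3 CPM in cDC1 and 2.06 ± 0.225 CPM in B cells. Itgax, which encodes CD11c, averaged 1092 ± 57.6 CPM in cDC1 and 12.8 ± 4.26 CPM in B cells. Flt3, the receptor for the growth factor that maintains dendritic cells, averaged 790.4 ± 11.8 CPM in cDC1 and 7.76 ± 1.99 CPM in B cells. Cd8a, which mouse splenic cDC1 carry without being T cells, averaged 1085 ± 63.2 CPM in cDC1 and 1.14 ± 0.381 CPM in B cells. On the B cell side Ms4a1, which encodes CD20, averaged 58.5 ± 2.27 CPM in cDC1 and 1807 ± 93.5 CPM in B cells. The labelled identity of both sorts therefore had its defining RNA in every library.

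**Figure D1:**
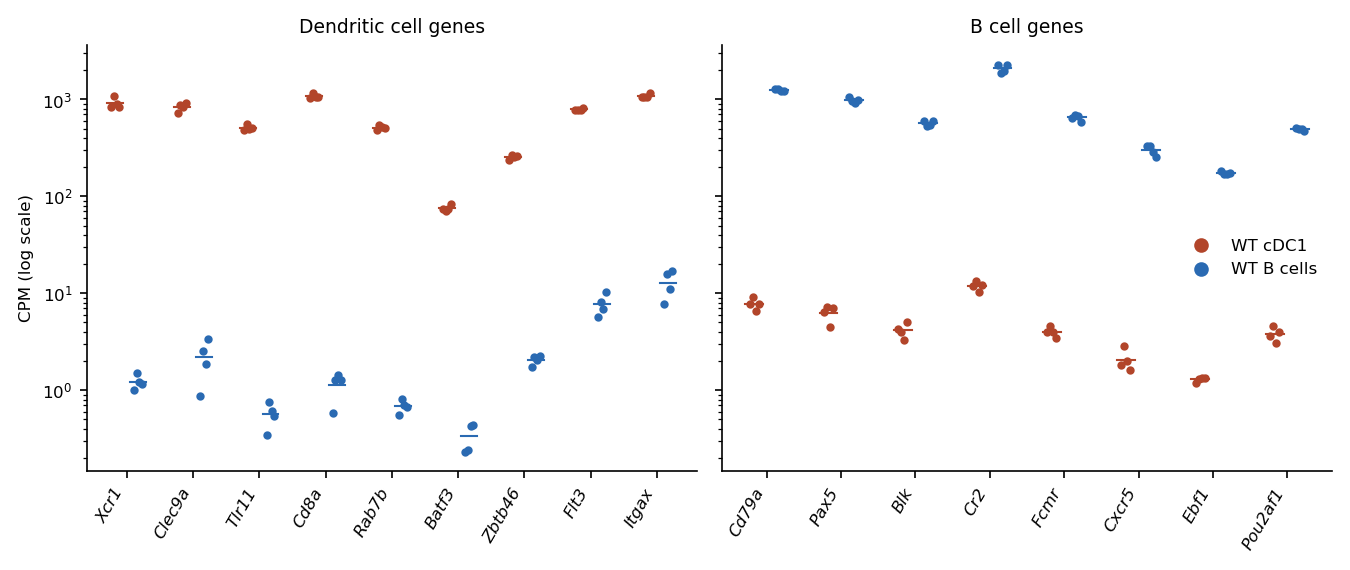
Levels of 9 dendritic cell genes (left) and 8 B cell genes (right) in CPM on a log axis. Each point is a library, red for the 4 of WT cDC1 and blue for the 4 of WT B cells, and bars are group means. No gene shown has overlapping groups, and every dendritic cell gene is high in cDC1 and every B cell gene is high in B cells.

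Each sort also held a low level of the markers of the other. Summed over the cDC1 list, the level in B cells was 9.77 to 10.5% of that in cDC1, and summed over the pan B cell list, the level in cDC1 was 3.38 to 3.72% of that in B cells. Few genes made most of these sums: Wdfy4 at 859 CPM and Irf8 at 334 CPM in B cells, and Ighm at 455 CPM in cDC1. The median member of the cDC1 list stood in B cells at 0.688 to 0.993% of its cDC1 level, and that of the pan B cell list in cDC1 at 1.13 to 1.32% of its B cell level. Among B cell genes with the largest differences, the level in cDC1 as a share of that in B cells was 0.624% for Cd79a, 0.639% for Pax5, 0.57% for Cr2, 0.609% for Fcmr and 0.73% for Blk. The dendritic cell genes stood in B cells at 0.135% of their cDC1 level for Xcr1, 0.105% for Cd8a, 0.11% for Tlr11 and 0.133% for Rab7b. These genes were chosen for their large differences, so their shares are a description. The part of carried-over cells or RNA in these low levels was not tested.

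Markers of other cell types were counted as well. Over all genes tested 71.1% were called, so calls among these markers are not in themselves a result about other cells. The share called was 54.5% for the macrophage list and 57.1% for the monocyte list. It was 83.3% for T cell, 87.5% for plasmacytoid dendritic cell and 100% for NK cell, cDC2 and plasma cell genes. Of 12 T cell genes 10 were lower in cDC1, with a summed level of 8.94 to 14.5 CPM in cDC1 and 71.4 to 86.0 CPM in B cells, and the kinase gene Lck, which made up most of the sum in B cells, averaged 1.91 ± 0.469 CPM in cDC1 and 48.6 ± 1.77 CPM in B cells. The defining gene Cd3e averaged 0.651 ± 0.269 CPM in cDC1 and 1.38 ± 0.29 CPM in B cells. All 8 NK cell genes were lower in cDC1 (summed 4.68 to 8.41 CPM, against 22.1 to 48.7 CPM in B cells), among them Prf1 at 0.485 ± 0.0471 CPM in cDC1 and 7.47 ± 0.462 CPM in B cells. Of 8 genes of a list of the other conventional dendritic cell type (cDC2) 7 were higher in cDC1 (summed 284 to 363 CPM, against 61.8 to 69.5 CPM), among them Clec12a at 175 ± 4.52 CPM in cDC1 and 12.8 ± 0.969 CPM in B cells. Cd209a, a lectin gene typical of cDC2, averaged 37.5 ± 6.71 CPM in cDC1 and 2.66 ± 1.09 CPM in B cells. Of 7 monocyte genes 3 were higher in cDC1 (summed 283 to 354 CPM, against 38.9 to 85.3 CPM), with Lyz2 at 185 ± 9.37 CPM in cDC1 and 27.5 ± 11.2 CPM in B cells. 1 was lower, and none with the 8 WT libraries alone, with or without the library number as a block, or without any one of cDC1 libraries 1 and 4 and B cell libraries 2 and 3. Of 11 macrophage genes 4 were higher and 2 lower (summed 112 to 140 CPM, against 32.8 to 87.4 CPM), the lower ones falling to 1 with the 8 WT libraries alone, with or without the block, and to 1 or 0 without any one of cDC1 libraries 2 and 4 and B cell libraries 2 and 3. Of 8 plasmacytoid dendritic cell genes 3 were higher and 4 lower (summed 188 to 251 CPM, against 705 to 761 CPM). Most of the sum in B cells came from Ly6d at 489 CPM and Tcf4 at 169 CPM, and the 3 higher in cDC1 were Siglech, Bst2 and Ccr9. All 8 plasma cell genes were called, 7 of them lower in cDC1 (summed 219 to 226 CPM, against 796 to 989 CPM), with Jchain at 19.2 ± 3.97 CPM in cDC1 and 285 ± 96.7 CPM in B cells. Of 8 erythroid genes tested (summed 1554 to 2383 CPM, against 2007 to 4134 CPM) and 8 neutrophil genes tested (summed 4.01 to 21.7 CPM, against 5.23 to 55.7 CPM), edgeR called 0, with 0 at an unadjusted p under 0.05, and limma-voom and DESeq2 called 0. With the library number as a block 6 of each list were lower in cDC1, with the 8 WT libraries alone or without scaling factors 1 of each was, and without B cell library 1, 2 neutrophil genes were. Their part in the results that follow was not tested.

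Of 18710 genes tested, 13298 differed between the sorts (71.1%), 6526 higher in cDC1 and 6772 lower, so that 49.1% of calls were higher. At least 2-fold, 3208 were higher (17.1%) and 3012 lower (16.1%), and at least 16-fold 844 were higher and 803 lower. The 2 groups did not overlap for 12840 genes (68.6%). Of the 5412 genes not called, 3283 had a 95% interval of the fold change that lay within 1.5-fold in either direction. The median log2 fold change of all genes was −0.04. Without scaling factors it moved by −0.21, and 36.3% of calls were then higher in cDC1. With upper quartile factors it moved by −0.11 and the share was 42.0%.

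**Figure D2:**
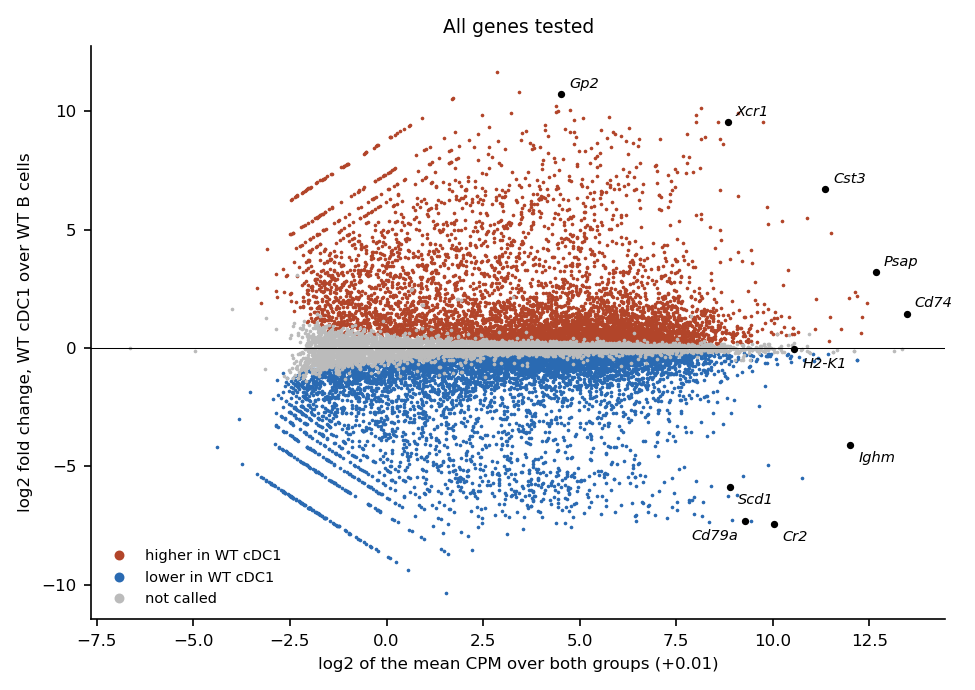
Log2 fold change of WT cDC1 over WT B cells against the log2 of the mean CPM of both groups, for the 18710 genes tested. Red genes were called higher in cDC1, blue genes lower and grey genes not called; 10 genes are named, from Gp2 at the top to Cr2 at the bottom, with H2-K1 on the zero line.

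Calls were also counted by type of gene, beside the 34.9% of all genes tested that were higher in cDC1 and the 36.2% that were lower. Among 13122 protein-coding genes 5232 were higher and 4818 lower in cDC1, with a median of 0.01. All 208 immunoglobulin variable segments tested were lower in cDC1, with a median of −5.45, and so were all 14 constant genes. A segment was tested only if it passed the filter on low counts, which a level in B cells alone could meet. The shared direction of the 208 segments therefore rests in part on that filter, and segments that did not pass it were not compared. Of 189 small nucleolar RNA genes 10 were higher and 81 lower, and of 597 long intergenic RNA genes 155 were higher and 276 lower.

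The largest differences in favour of cDC1 included genes with and without a known part in these cells. They were, at 20 CPM or more, Gp2, Cd207, Gpr141b, Ocstamp, Il12b, Fndc5, Cd8a, Tlr11, Pianp, Htr7, Rab7b and Xcr1. Gp2, which encodes a glycoprotein that binds bacterial fimbriae, had 4553 counts over the 4 cDC1 libraries and 3 over the 4 B cell libraries, a ratio of 1750 after scaling for library size, with an interval of 599 to 8490 that covers counting error only. Cd207 encodes langerin, a lectin that takes up glycans, and averaged 41.5 ± 6.37 CPM in cDC1 and 0.0307 ± 0.0258 CPM in B cells. Gpr141b, an orphan receptor gene, averaged 569 ± 42 CPM in cDC1 and 0.503 ± 0.181 CPM in B cells. Rab7b, a regulator of traffic from endosomes, averaged 514 ± 26.6 CPM in cDC1 and 0.683 ± 0.108 CPM in B cells. Tlr11, a sensor of the profilin of protozoan parasites, stood at 483, 559, 490.2 and 512 CPM in cDC1 and 0.348, 0.751, 0.615 and 0.537 CPM in B cells. These 12 genes were chosen among genes whose groups did not overlap, so that each was higher in every cDC1 library by that choice.

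The largest differences in favour of B cells included those of Cacna1i, Cr2, Edaradd, Fcmr, Cd79a, Fcrl5, Pax5, Cxcr5, Nebl, Bcar3 and Blk. Cr2, which encodes the complement receptor CD21, stood at 11.8, 13.3, 10.3 and 12.3 CPM in cDC1 and 2277, 1892, 1957 and 2254 CPM in B cells. Fcmr, the receptor for the Fc part of IgM, averaged 3.98 ± 0.459 CPM in cDC1 and 653 ± 48.1 CPM in B cells. Blk, a kinase of the Src family used by the B cell receptor, averaged 4.17 ± 0.748 CPM in cDC1 and 570.3 ± 35.1 CPM in B cells. Cacna1i encodes a T-type calcium channel and averaged 0.285 ± 0.0899 CPM in cDC1 and 54.1 ± 9.3 CPM in B cells. Nebl, which encodes nebulette, a protein known from heart muscle, averaged 0.398 ± 0.080 CPM in cDC1 and 56.2 ± 9.44 CPM in B cells. Their log2 fold changes ran from −7.55 ± 0.33 to −7.09 ± 0.12, a smaller size than the 9.53 to 10.72 of the genes in favour of cDC1.

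To show where such genes start, 250 bases before the RefSeq start (GRCm38.p6) are printed for 3 genes higher in cDC1 and 3 lower. Capitals mark the letters of motifs named for factors of these lineages, on either strand. Xcr1, chr9:123862030-123862279 (minus strand), holds none of them in this window.
Xcr1: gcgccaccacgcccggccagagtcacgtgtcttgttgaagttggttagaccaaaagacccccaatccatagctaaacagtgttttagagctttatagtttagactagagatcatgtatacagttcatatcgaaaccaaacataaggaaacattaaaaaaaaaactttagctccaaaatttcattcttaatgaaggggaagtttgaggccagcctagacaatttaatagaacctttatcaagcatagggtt
Tlr11, chr14:50357664-50357913 (plus strand), holds a PU.1 site and an interferon element close together.
Tlr11: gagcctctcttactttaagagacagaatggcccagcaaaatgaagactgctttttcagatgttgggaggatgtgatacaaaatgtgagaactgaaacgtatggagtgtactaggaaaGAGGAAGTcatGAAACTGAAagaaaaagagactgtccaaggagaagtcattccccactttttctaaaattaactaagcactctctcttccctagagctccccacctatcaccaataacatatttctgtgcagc
Cxcl9, chr5:92328080-92328329 (minus strand), holds an interferon element.
Cxcl9: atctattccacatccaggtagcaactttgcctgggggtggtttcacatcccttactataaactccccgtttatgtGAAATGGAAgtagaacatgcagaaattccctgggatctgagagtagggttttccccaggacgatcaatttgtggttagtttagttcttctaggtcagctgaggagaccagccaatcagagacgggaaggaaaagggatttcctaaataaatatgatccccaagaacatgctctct
Cd79a, chr7:24897247-24897496 (plus strand), holds an E box, and its last bases lie inside the gene as GENCODE annotates it.
Cd79a: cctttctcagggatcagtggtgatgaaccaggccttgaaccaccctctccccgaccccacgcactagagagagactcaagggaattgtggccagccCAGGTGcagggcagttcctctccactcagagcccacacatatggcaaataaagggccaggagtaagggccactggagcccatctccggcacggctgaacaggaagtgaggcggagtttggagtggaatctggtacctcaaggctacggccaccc
Blnk, chr19:40994222-40994471 (minus strand), holds an E box and, after it, the octamer bound by OCT factors and their partner POU2AF1.
Blnk: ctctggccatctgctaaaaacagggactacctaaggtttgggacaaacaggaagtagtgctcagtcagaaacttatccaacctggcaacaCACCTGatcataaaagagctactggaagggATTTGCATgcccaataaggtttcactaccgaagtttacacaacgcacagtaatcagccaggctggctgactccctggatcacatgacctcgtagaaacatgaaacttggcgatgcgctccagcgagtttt
Cd22, chr7:30879029-30879278 (minus strand), holds an E box, 3 overlapping matches of the ETS-IRF composite and 2 overlapping matches of the Ebf1 site.
Cd22: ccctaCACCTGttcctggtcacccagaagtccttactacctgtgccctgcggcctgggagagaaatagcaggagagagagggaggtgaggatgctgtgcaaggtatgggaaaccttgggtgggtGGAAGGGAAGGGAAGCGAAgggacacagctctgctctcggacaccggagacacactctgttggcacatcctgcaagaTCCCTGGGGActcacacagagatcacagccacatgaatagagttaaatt

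Promoters of 250 bases before to 50 after the start were found for 11036 of the genes tested, and the 300 with the largest differences in each direction were set beside all of them. The octamer ATGCAAAT was found in 1.33% of promoters of genes higher in cDC1, 3.0% of those of genes higher in B cells and 1.46% of all. The Ebf1 site CCCNNGGGA was found in 7.0%, 12.3% and 7.67%, and the E box CAGGTG in 21.7%, 26.0% and 17.9%, in the same order. The PU.1 site GAGGAAGT was found in 6.0% of promoters of genes higher in cDC1, 2.67% of those of genes higher in B cells and 3.54% of all. The AP-1 site TGANTCA was found in 11.3%, 6.33% and 5.19%, the interferon element GAAANNGAA in 10.3%, 8.0% and 7.42%, and the ETS-IRF composite GGAANNGAA in 7.67%, 8.33% and 7.49%, in that order. Both strands were searched, and the interferon element and the composite can overlap, as can the PU.1 site and the composite. Both sets of promoters had fewer CpG steps than all promoters, with a median ratio of observed to expected CpG of 0.407 for genes higher in cDC1, 0.407 for genes higher in B cells and 0.744 for all. With the 1000 largest differences in each direction several of these shares drew together or changed order. The PU.1 site was then in 4.8% of promoters of genes higher in cDC1 and 4.1% of those of genes higher in B cells, the Ebf1 site in 8.9% and 9.3%, and the AP-1 site in 8.5% and 7.7%. The interferon element was in 8.9% and 9.4% and the ETS-IRF composite in 8.8% and 8.6%, while the octamer was in 1.2% and 3.1% and the E box in 20.1% and 24.5%. These shares are a description, with no test.

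Transcription factors split by lineage. Of 15 factors known from dendritic cells, 11 were higher in cDC1, 3 lower and 1 not called, with a median of 2.19. Batf3, without which cDC1 do not form, stood at 74.8, 70.8, 74.8 and 84.2 CPM in cDC1 and 0.232, 0.24, 0.43 and 0.442 CPM in B cells (a log2 fold change of 7.81 ± 0.16, edgeR adjusted p = 2.13e-21). Id2, which blocks E proteins, averaged 546 ± 33.7 CPM in cDC1 and 12.4 ± 1.84 CPM in B cells. Irf8 was found in both cell types, at 2017, 2174, 2084 and 2250 CPM in cDC1 and 305, 345, 333 and 353 CPM in B cells, and was higher in cDC1 by 2.67 ± 0.09 on the log2 scale. Lower in cDC1 were Irf4, a factor of plasma cells and of cDC2, at 42.5 ± 8.96 CPM in cDC1 and 262 ± 25.2 CPM in B cells and Zeb2, a zinc finger homeobox repressor, at 21.4 ± 5.4 CPM in cDC1 and 42.6 ± 3.58 CPM in B cells.

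Of 18 B lineage factors 17 were lower in cDC1, with a median of −3.41. Ebf1, which opens the B cell programme, averaged 1.29 ± 0.0769 CPM in cDC1 and 173 ± 5.96 CPM in B cells. Pou2af1, a partner of OCT factors at the octamer, averaged 3.81 ± 0.664 CPM in cDC1 and 493 ± 13.6 CPM in B cells. Ikzf3, which encodes Aiolos, averaged 5.61 ± 0.492 CPM in cDC1 and 479 ± 16.9 CPM in B cells. Klf2, a factor of follicular B cells, had 82.1 ± 6.51 CPM in cDC1 and 96.4 ± 6.26 CPM in B cells and did not pass the test (a log2 fold change of −0.23 ± 0.24, edgeR adjusted p = 0.41). Fitted to the 8 WT libraries alone it was lower (−0.23, edgeR adjusted p = 0.00553), and there with the library number as a block too (−0.23, edgeR adjusted p = 0.00239).

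Genes of the B cell receptor and its signalling fell into a part that was low in cDC1 and a part that cDC1 held as well. Of 30 genes 23 were lower in cDC1, 6 higher and 1 not called, with a median of −1.14. Receptor, co-receptor and adaptor genes were among those with the largest differences. Cd79b, the partner of Cd79a, averaged 14.2 ± 2.51 CPM in cDC1 and 1069 ± 67.8 CPM in B cells. The adaptor gene Blnk averaged 7.21 ± 0.712 CPM in cDC1 and 327 ± 9.62 CPM in B cells, and the scaffold gene Bank1 had a log2 fold change of −5.64 ± 0.10. Cd22, which encodes an inhibitory receptor, averaged 27.6 ± 2.38 CPM in cDC1 and 1182 ± 49.8 CPM in B cells. The 3 largest differences in the other direction were those of Inpp5d, Cd81 and Fyn. Inpp5d, which encodes the lipid phosphatase SHIP1, averaged 674 ± 27.1 CPM in cDC1 and 278 ± 11.9 CPM in B cells. Cd81, a tetraspanin gene, averaged 315 ± 16.8 CPM in cDC1 and 146 ± 12.2 CPM in B cells, and the kinase gene Fyn had a log2 fold change of 0.95 ± 0.08. Immunoglobulin genes took 0.0608 to 0.0782% of counts in cDC1 and 1.75 to 2.21% in B cells. Ighm, the IgM heavy chain, stood at 451, 466, 429.8 and 473 CPM in cDC1 and 7158, 8229, 8015 and 7754 CPM in B cells. Igha, the IgA heavy chain, varied widely among libraries of both groups, at 17.9, 20.6, 15.8 and 43.5 CPM in cDC1 and 118, 330.2, 274 and 444 CPM in B cells.

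The labels do not separate marginal zone from follicular B cells, and markers of both were found in the B cell libraries. Of 10 genes of a marginal zone list 5 were lower in cDC1, 3 higher and 2 not called. S1pr3, a sphingosine-1-phosphate receptor that keeps cells in the marginal zone, averaged 0.969 ± 0.166 CPM in cDC1 and 119 ± 23.8 CPM in B cells. Dtx1, a target of Notch signalling, averaged 12.1 ± 5.62 CPM in cDC1 and 400.0 ± 53.3 CPM in B cells. Other genes of the list were higher in cDC1. Cd9, a tetraspanin gene, averaged 170.1 ± 7.73 CPM in cDC1 and 40.5 ± 5.34 CPM in B cells. Asb2, part of a ubiquitin ligase, averaged 279 ± 18.1 CPM in cDC1 and 35.7 ± 8.78 CPM in B cells. Of 6 follicular genes 4 were lower, 1 was higher (0 without cDC1 library 4) and 1 was not called. Fcer2a, which encodes CD23 of follicular B cells, averaged 3.15 ± 0.219 CPM in cDC1 and 330.5 ± 50.2 CPM in B cells. Ighd, the IgD heavy chain, averaged 11.8 ± 1.23 CPM in cDC1 and 909 ± 135 CPM in B cells.

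Genes of MHC class II presentation were high in both cell types and higher in cDC1. Of 13 genes 11 were higher and 2 lower, with a median of 1.45, and their summed level was 41766 to 46900 CPM in cDC1 and 14313 to 14495 CPM in B cells. Cd74, the invariant chain that guides class II molecules to endosomes, stood at 17756, 15715, 15678 and 16882 CPM in cDC1 and 6099, 6092, 5964 and 6087 CPM in B cells. The class II chains H2-Aa, H2-Ab1 and H2-Eb1 were higher by 1.89 ± 0.09, 2.21 ± 0.10 and 2.10 ± 0.10 on the log2 scale, and Ciita, which drives transcription of these genes, by 1.84 ± 0.07 (edgeR adjusted p = 3.01e-16). The 2 exceptions belong to complexes that modify peptide exchange, whose other chains were higher in cDC1. H2-DMb2, a chain of the exchange factor H2-DM, stood at 307, 246, 246 and 249.5 CPM in cDC1 and 611, 589.7, 591 and 595 CPM in B cells. H2-Ob, a chain of H2-DO, which restrains H2-DM, stood at 417, 407, 435 and 466 CPM in cDC1 and 572, 652, 652 and 648 CPM in B cells. Both were lower in every cDC1 library than in any B cell library. The other chains of H2-DM, H2-DMa and H2-DMb1, averaged 477 ± 33 CPM in cDC1 and 193 ± 4.11 CPM in B cells for H2-DMa and 519.8 ± 18.6 CPM in cDC1 and 183 ± 6.3 CPM in B cells for H2-DMb1. H2-DMb1 and H2-DMb2 are similar copies, so reads may be split between them. H2-Oa, the other chain of H2-DO, averaged 179.6 ± 21 CPM in cDC1 and 136 ± 7.12 CPM in B cells.

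March1, the gene of the ubiquitin ligase that takes class II molecules off the surface, was itself higher in cDC1. It stood at 322, 379.9, 339.8 and 322 CPM in cDC1 and 148, 159, 144 and 137 CPM in B cells (a log2 fold change of 1.22 ± 0.07, edgeR adjusted p = 7.18e-13). The groups did not overlap.

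Of 17 genes of MHC class I presentation 15 were higher in cDC1, none was lower and 2 were not called, with a median of 1.06. Psmb9, a subunit of the immunoproteasome, averaged 322 ± 12.3 CPM in cDC1 and 105 ± 6.85 CPM in B cells. Psme1, an activator of the proteasome, averaged 492 ± 17.9 CPM in cDC1 and 168 ± 6.68 CPM in B cells. Tap2, a subunit of the peptide transporter, averaged 263 ± 19 CPM in cDC1 and 109.7 ± 7.94 CPM in B cells. The class I heavy chain H2-K1 did not pass the test, with 1448, 1458, 1433 and 1580 CPM in cDC1 and 1575, 1536, 1480 and 1586 CPM in B cells (a log2 fold change of −0.06 ± 0.08, edgeR adjusted p = 0.477). It was lower in cDC1 without scaling factors (−0.27) and with upper quartile factors (−0.17).

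Genes with a known part in cross-presentation were mostly higher in cDC1, with 10 of 15 higher, 4 lower and 1 not called. Wdfy4, required in mice for cross-presentation of cell-bound antigen, stood at 3463, 3879, 3441 and 3624 CPM in cDC1 and 889, 844, 808 and 894 CPM in B cells. Rab43, a small GTPase used by mouse cDC1 in cross-presentation, averaged 1302 ± 33.6 CPM in cDC1 and 74 ± 2.39 CPM in B cells. Dnase1l3, a secreted nuclease for DNA in membrane particles, averaged 1829 ± 154 CPM in cDC1 and 48.5 ± 3.85 CPM in B cells. Of the exon bases of Rab43, 75.4% are shared with another annotated gene on its strand, so its count is uncertain. Cybb and Rac2 of the same list were lower, at −2.27 ± 0.14 and −2.10 ± 0.08.

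These last belong to the NADPH oxidase, which makes superoxide in phagosomes. Of its 8 genes 5 were lower in cDC1, 2 higher and 1 not called, with a median of −1.0. Cybb, the catalytic subunit, stood at 178, 107, 130.5 and 103 CPM in cDC1 and 669, 605, 612 and 619 CPM in B cells. Hvcn1, the proton channel that balances the charge moved by the oxidase, averaged 21.4 ± 3.27 CPM in cDC1 and 329.9 ± 47.7 CPM in B cells. Higher in cDC1 were Rac1 at 319 ± 16.6 CPM in cDC1 and 166 ± 6.36 CPM in B cells and Cyba at 168 ± 16.2 CPM in cDC1 and 133 ± 5.97 CPM in B cells. Without scaling factors Cyba did not pass the test (0.13, edgeR adjusted p = 0.176). Library 1 of cDC1 was the highest of its group for Cybb and Hvcn1.

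Genes of the lysosome were split between the cell types. Of 35 genes 20 were higher in cDC1, 9 lower and 6 not called, with a median of 0.43, and their summed level was 23182 to 24755 CPM in cDC1 and 4261 to 4484 CPM in B cells. Psap, the precursor of the saposins that present lipids to hydrolases, stood at 11179, 12125, 11402 and 12160 CPM in cDC1 and 1355, 1208, 1181 and 1314 CPM in B cells. Cst3, which encodes the protease inhibitor cystatin C, stood at 5060, 5326, 4916 and 5214 CPM in cDC1 and 45, 50.6, 51.1 and 48.3 CPM in B cells. Naaa, which encodes an acid amidase, averaged 1800 ± 129 CPM in cDC1 and 29 ± 1.98 CPM in B cells. The lysosomal mannosidase gene Man2b1 averaged 1310 ± 58.8 CPM in cDC1 and 191 ± 10.1 CPM in B cells. Several proteases were lower in cDC1. Ctsc, the activator of granzymes, averaged 72.8 ± 4.22 CPM in cDC1 and 262 ± 14.9 CPM in B cells. Lgmn, an asparagine endopeptidase, averaged 43.5 ± 2.88 CPM in cDC1 and 143 ± 4.35 CPM in B cells. Ctso and Tpp1 were lower as well, at −1.48 ± 0.08 and −1.26 ± 0.06 on the log2 scale. Of 16 subunits of the proton pump of these organelles 13 were higher in cDC1 and 1 lower; the isoform genes Atp6v0a2 and Atp6v0a1 went opposite ways, at 1.95 ± 0.07 and −0.79 ± 0.09.

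Sensors of microbes were shared out between the cell types gene by gene. Of 30 genes 18 were higher in cDC1, 11 lower and 1 not called, with a median of 0.55. Tlr3, the sensor of double-stranded RNA, stood at 359.8, 462, 398 and 407 CPM in cDC1 and 30.6, 21.4, 19.5 and 23.4 CPM in B cells. Tlr12, the partner of TLR11, averaged 131 ± 7.67 CPM in cDC1 and 2.86 ± 0.209 CPM in B cells. Tlr13, a sensor of bacterial ribosomal RNA in mice, averaged 149.6 ± 15.4 CPM in cDC1 and 0.959 ± 0.288 CPM in B cells, and the inflammasome gene Nlrp3 averaged 43.4 ± 3.73 CPM in cDC1 and 0.66 ± 0.382 CPM in B cells. Tlr7, the sensor of single-stranded RNA, stood at 16.8, 9.88, 9.82 and 12.2 CPM in cDC1 and 124, 117, 113 and 119 CPM in B cells. Tlr1, which pairs with TLR2, averaged 22.7 ± 2.61 CPM in cDC1 and 196 ± 5.63 CPM in B cells. Ddx58, the gene of the RNA helicase RIG-I, averaged 5.73 ± 1.55 CPM in cDC1 and 105 ± 3.2 CPM in B cells. Nlrc4 averaged 8.25 ± 1.23 CPM in cDC1 and 38.9 ± 2.31 CPM in B cells. The groups did not overlap for any of these 8 sensors.

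**Figure D3:**
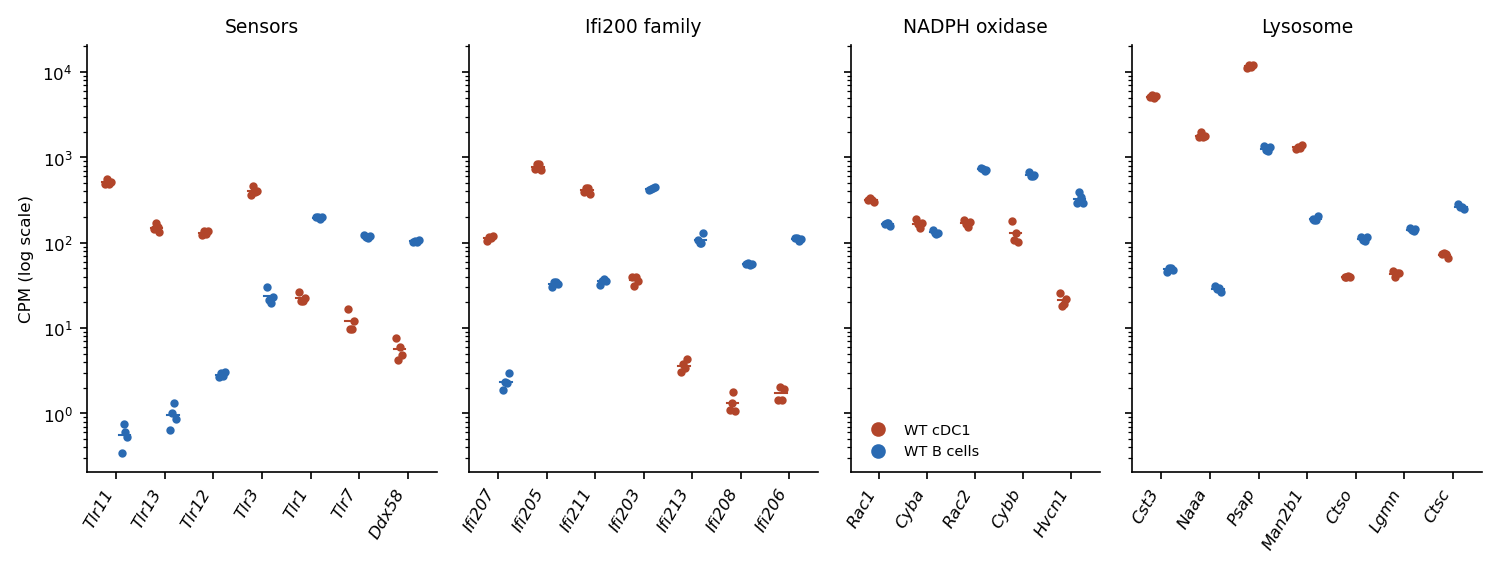
Levels in CPM on a log axis of genes of 4 lists whose members went both ways: sensors, the Ifi200 family, the NADPH oxidase and the lysosome. Each point is a library, red for WT cDC1 and blue for WT B cells, with bars at the group means. Within each panel the genes on the left were higher in cDC1 and those on the right lower.

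The same held for families of genes that interferons induce. Of the 12 genes of the Ifi200 family tested, which lie in 1 cluster and encode DNA-binding proteins of the AIM2 type, 5 were higher in cDC1 and 7 lower. Ifi205 stood at 739.9, 845, 828 and 709 CPM in cDC1 and 30, 34.4, 35.2 and 33.1 CPM in B cells, and Ifi207 and Ifi211 were higher by 5.60 ± 0.12 and 3.54 ± 0.10. Ifi203 stood at 39.4, 31.5, 40.3 and 35.6 CPM in cDC1 and 412, 428, 438 and 447 CPM in B cells, and Ifi206, Ifi208 and Ifi213 were lower, at −6.00 ± 0.12, −5.43 ± 0.16 and −4.91 ± 0.15. These genes arose by duplication and resemble each other, so reads may be split between them. Of 16 GTPases of the Gbp and Irg families 5 were higher and 10 lower, with Tgtp1 at 1.44 ± 0.11 and Gbp7 and Gbp6 at −4.36 ± 0.19 and −3.54 ± 0.14. Of 21 interferon-stimulated genes, 3 of them GTPases just counted, 7 were higher and 13 lower. Mx1, an antiviral GTPase, averaged 123 ± 25.5 CPM in cDC1 and 22.3 ± 2.23 CPM in B cells. Irf7 averaged 115 ± 10.2 CPM in cDC1 and 24.8 ± 2.66 CPM in B cells. Ifit3 averaged 3.39 ± 1.06 CPM in cDC1 and 25.3 ± 2.87 CPM in B cells. Oas1a averaged 4.39 ± 0.945 CPM in cDC1 and 18.9 ± 1.82 CPM in B cells.

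Lectins and receptors for uptake differed in kind. Of 35 lectins and uptake receptors 18 were higher in cDC1, 8 lower and 9 not called, with a median of 1.07. Beside Cd207 and Clec9a, Clec1a averaged 36 ± 6.78 CPM in cDC1 and 0.114 ± 0.0298 CPM in B cells. Clec7a, which encodes the glucan receptor dectin-1, averaged 26.9 ± 6.79 CPM in cDC1 and 0.705 ± 0.243 CPM in B cells. Genes of inhibitory receptors in this list went both ways. Lower in cDC1 were Cd72 at 33.8 ± 3.99 CPM in cDC1 and 336 ± 3.24 CPM in B cells and Siglecg at 58.9 ± 6.98 CPM in cDC1 and 509 ± 47.4 CPM in B cells. Higher in cDC1 were Clec12a, with the levels given above, and Cd33 at 19.8 ± 3.15 CPM in cDC1 and 1.33 ± 0.38 CPM in B cells. Of 13 Fc receptor genes 4 were higher and 8 lower. Fcgrt, the neonatal receptor that rescues IgG from lysosomes, averaged 108 ± 4.49 CPM in cDC1 and 8.58 ± 1.04 CPM in B cells. Fcer1g, the signalling chain shared by Fc receptors, averaged 36.8 ± 9.57 CPM in cDC1 and 4.7 ± 1.5 CPM in B cells. Fcrl5, of the Fc receptor-like family, averaged 1.08 ± 0.389 CPM in cDC1 and 174 ± 19.3 CPM in B cells. Of 12 complement genes 3 were higher, 5 lower and 4 not called. Cd55, which removes C3 convertases from the cell's own surface, averaged 1.85 ± 0.423 CPM in cDC1 and 244 ± 35.9 CPM in B cells.

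Receptors that position the cells had large differences in both directions. Of 21 genes 8 were higher and 11 lower in cDC1, with a median of −0.86. Cxcr5, which leads B cells into follicles, stood at 1.84, 2.84, 1.98 and 1.63 CPM in cDC1 and 334, 333, 288 and 254 CPM in B cells. S1pr1, the receptor for exit into blood, averaged 3.16 ± 0.386 CPM in cDC1 and 361 ± 55.4 CPM in B cells. Ackr2, a scavenger of chemokines, averaged 0.515 ± 0.204 CPM in cDC1 and 54.1 ± 8.42 CPM in B cells. Cx3cr1 stood at 25.8 ± 7.92 CPM in cDC1 and 0.779 ± 0.171 CPM in B cells, and Ccr9 at 45.6 ± 3.25 CPM in cDC1 and 8.79 ± 4.18 CPM in B cells. For Cx3cr1 library 1 was the highest of the cDC1 group.

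Cytokine genes were divided as well. Of 25 cytokine and chemokine genes 16 were higher in cDC1 and 6 lower, with a median of 2.13. Il12b, the p40 chain of interleukin 12, stood at 34.2, 45.8, 47.9 and 45.6 CPM in cDC1 and 0, 0.0601, 0.0307 and 0.0631 CPM in B cells. Il12a, the p35 chain that joins it in interleukin 12, was chosen after its values were seen; it stood at 0.147, 0, 0.0461 and 0.0814 CPM in cDC1 and 8.07, 9.62, 9.62 and 8.71 CPM in B cells (a log2 fold change of −6.90 ± 0.24, edgeR adjusted p = 1.97e-17). RNA of the p40 chain was thus higher in cDC1 and RNA of the p35 chain higher in B cells. Cxcl9, which attracts T cells and whose promoter is printed above, averaged 440.3 ± 35.9 CPM in cDC1 and 0.846 ± 0.391 CPM in B cells. Cxcl16, another chemokine gene, averaged 174 ± 13.8 CPM in cDC1 and 0.875 ± 0.198 CPM in B cells. Il1b averaged 129 ± 25.4 CPM in cDC1 and 1.22 ± 0.23 CPM in B cells. The lymphotoxin genes were lower in cDC1, with Lta at 1.14 ± 0.227 CPM in cDC1 and 29.3 ± 1.18 CPM in B cells and Ltb at 46 ± 15.8 CPM in cDC1 and 216 ± 16 CPM in B cells. Ltbr, the receptor for lymphotoxin, averaged 35.5 ± 1.54 CPM in cDC1 and 0.339 ± 0.208 CPM in B cells. Flt3l, the ligand of FLT3, averaged 8.28 ± 1.33 CPM in cDC1 and 32 ± 3.33 CPM in B cells, while its receptor Flt3 had the levels given above; both pairs thus had ligand RNA higher in B cells and receptor RNA higher in cDC1.

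Of 31 cytokine receptor genes 19 were higher in cDC1, 11 lower and 1 not called. Kit, the stem cell factor receptor, stood at 326, 342, 333 and 327 CPM in cDC1 and 2.24, 4.03, 2.95 and 3.73 CPM in B cells. Tnfrsf1a, a receptor for tumour necrosis factor, averaged 91.5 ± 1.68 CPM in cDC1 and 1.13 ± 0.371 CPM in B cells. Tnfrsf13c, which encodes the receptor BAFFR for the survival factor BAFF, averaged 3.19 ± 0.619 CPM in cDC1 and 233 ± 8.73 CPM in B cells. Tnfrsf13b, which encodes another BAFF receptor, TACI, averaged 13.3 ± 3.23 CPM in cDC1 and 236 ± 6.44 CPM in B cells. Il9r averaged 4.71 ± 1.12 CPM in cDC1 and 201 ± 32.5 CPM in B cells. Il27ra averaged 2.9 ± 0.218 CPM in cDC1 and 50.6 ± 2.78 CPM in B cells.

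Genes of costimulation and checkpoints, which tune the answer of T cells, were divided between the sorts. Of 22 genes 13 were higher in cDC1, 8 lower and 1 not called. Havcr2, which encodes TIM-3, stood at 502, 606, 567 and 561 CPM in cDC1 and 0.406, 1.47, 1.54 and 1.58 CPM in B cells. Vsir, which encodes VISTA, averaged 174 ± 6.56 CPM in cDC1 and 12.9 ± 1.95 CPM in B cells. Cd80 averaged 49.6 ± 2.54 CPM in cDC1 and 5.27 ± 0.515 CPM in B cells. Cd86, chosen after its values were seen as the other ligand of CD28, averaged 402 ± 25.9 CPM in cDC1 and 51.2 ± 3.49 CPM in B cells. Cd274, which encodes PD-L1, stood at 52, 46.7, 50.7 and 49.8 CPM in cDC1 and 113, 88.5, 87.2 and 111 CPM in B cells, and was lower in cDC1 by a log2 fold change of −1.01 ± 0.09. The other ligand of PD-1, Pdcd1lg2, averaged 2.33 ± 0.482 CPM in cDC1 and 10.7 ± 0.428 CPM in B cells. Lgals9 averaged 15 ± 0.956 CPM in cDC1 and 85.4 ± 2.8 CPM in B cells. Cd24a averaged 391 ± 23.5 CPM in cDC1 and 784 ± 55.4 CPM in B cells.

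**Figure D4:**
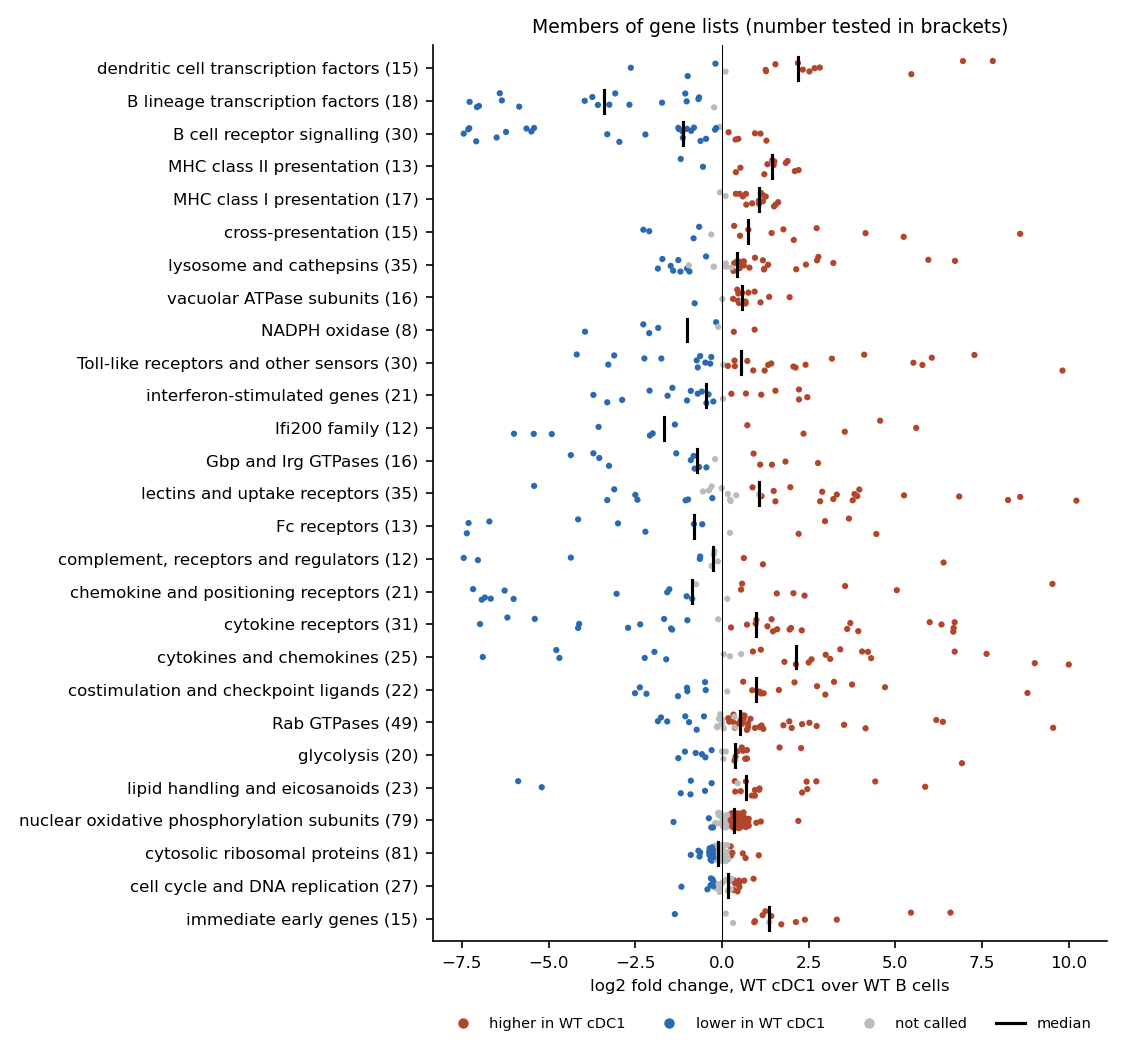
Log2 fold change of WT cDC1 over WT B cells for each member of 27 gene lists, with the number tested in brackets and a black bar at the median. Red members were called higher in cDC1, blue members lower and grey members not called. Lists such as MHC class I presentation lie on 1 side, and lists such as sensors, Fc receptors and the Ifi200 family spread over both.

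Adhesion and the cytoskeleton leaned towards cDC1. Of 26 genes of actin and its partners 19 were higher and 4 lower, with a summed level of 27034 to 29336 CPM in cDC1 and 10871 to 12422 CPM in B cells. Tmsb4x, which binds actin monomers, averaged 7485 ± 295 CPM in cDC1 and 1434 ± 91.2 CPM in B cells. Fscn1, which bundles actin in dendrites, averaged 109 ± 12.1 CPM in cDC1 and 3.36 ± 0.133 CPM in B cells. Myosin 1 genes went opposite ways, with Myo1f at 333 ± 16.9 CPM in cDC1 and 26.2 ± 2.11 CPM in B cells and Myo1e at 3.87 ± 0.982 CPM in cDC1 and 196 ± 11.2 CPM in B cells. Of 21 adhesion genes 14 were higher and 5 lower. Itga8 averaged 57.9 ± 5.06 CPM in cDC1 and 0.145 ± 0.0402 CPM in B cells. Cadm1, a marker of cDC1 across species, averaged 406 ± 50.4 CPM in cDC1 and 1.48 ± 0.658 CPM in B cells. Of 49 Rab GTPases, which direct vesicle traffic, 32 were higher and 7 lower, led after Rab7b by Rab32 at 272 ± 22.2 CPM in cDC1 and 3.28 ± 0.171 CPM in B cells. Tetraspanins were split, with 11 of 20 higher and 7 lower, from Tspan33 at 7.08 ± 0.17 to Tspan32 at −6.44 ± 0.11, and class 4 semaphorins were too, with Sema4a at 5.92 ± 0.24 and Sema4b at −4.79 ± 0.15.

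Notch genes went both ways, the receptors among them. Of 19 genes 7 were higher and 9 lower. The receptor gene Notch4 averaged 187 ± 20.9 CPM in cDC1 and 0.847 ± 0.214 CPM in B cells. Notch1, another receptor gene, was lower in cDC1 and averaged 17.5 ± 2.34 CPM in cDC1 and 32.7 ± 4.2 CPM in B cells. Rbpj, the DNA-binding partner of all Notch receptors, averaged 337 ± 21.6 CPM in cDC1 and 48.9 ± 2.39 CPM in B cells. Dtx1 was lower, as given above. Notch2, which both splenic dendritic cells and marginal zone B cells need in mice, stood at 360.4, 393, 339 and 339 CPM in cDC1 and 396, 377, 365 and 418 CPM in B cells and did not pass the test (−0.12 ± 0.12, edgeR adjusted p = 0.363). With the library number as a block it did (−0.12, edgeR adjusted p = 0.0388).

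Metabolic genes showed a few large differences among many small ones. Of 20 glycolysis genes 11 were higher in cDC1 and 6 lower, with a median of 0.37. The hexokinase gene Hk3 averaged 152 ± 17.3 CPM in cDC1 and 1.25 ± 0.12 CPM in B cells, and its relative Hk2 averaged 87 ± 1.45 CPM in cDC1 and 17.9 ± 1.5 CPM in B cells. The glucose transporter gene Slc2a1 averaged 13.8 ± 1.22 CPM in cDC1 and 33 ± 1.86 CPM in B cells, and the enolase gene Eno1 had a log2 fold change of −1.07 ± 0.09. Of 23 lipid genes 15 were higher and 7 lower. Scd1, which puts a double bond into stearic acid, stood at 12.7, 17.6, 14.9 and 17.8 CPM in cDC1 and 921, 942, 950.1 and 898 CPM in B cells. The cholesterol exporter gene Abca1 averaged 2.5 ± 0.34 CPM in cDC1 and 91.8 ± 7.84 CPM in B cells. Alox5ap, needed for leukotriene synthesis, averaged 261 ± 14.8 CPM in cDC1 and 4.5 ± 1.08 CPM in B cells. Plin2, a coat protein of lipid droplets, averaged 148 ± 5.79 CPM in cDC1 and 6.92 ± 1.29 CPM in B cells. Slc11a1, which encodes the phagosomal metal transporter NRAMP1, averaged 113 ± 11.3 CPM in cDC1 and 1.56 ± 0.784 CPM in B cells.

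Housekeeping families had small fold changes, and the balance of calls in some of them turned with the scaling. Of 79 nuclear subunits of oxidative phosphorylation 54 were higher in cDC1 and 4 lower, with a median of 0.35, and without scaling factors 36 were higher and 16 lower. Of 38 proteasome subunits 26 were higher and 2 lower (17 and 6 without factors). Leaving out any one of cDC1 libraries 2 to 4 and B cell libraries 2 to 4 brought the lower ones to 1 or 0. Of 81 cytosolic ribosomal protein genes 6 were higher and 25 lower, with a median of −0.11 (3 and 60 without factors, 12 and 39 with the 8 WT libraries alone, 15 and 45 with the library number as a block added, 3 and 29 without cDC1 library 1). Of 78 mitochondrial ribosomal protein genes 27 were higher and 21 lower, but 12 were higher and 38 lower without factors, 15 and 31 with upper quartile factors and 20 and 22 without cDC1 library 1. Of 27 cell cycle genes 10 were higher and 7 lower, but 4 and 11 without factors. The lower ones numbered 4 without cDC1 library 2 or B cell library 1. Cdk1, the kinase of mitotic entry, averaged 36.7 ± 2.32 CPM in cDC1 and 19.6 ± 1.69 CPM in B cells, and Ccne1, the cyclin of S phase entry, averaged 7.8 ± 1.52 CPM in cDC1 and 17.5 ± 0.461 CPM in B cells. Of 332 C2H2 zinc finger genes named Zfp, many of them repressors, 70 were higher and 192 lower in cDC1 (52 and 240 without factors). Zfp366, which encodes DC-SCRIPT, a regulator of cDC1, went the other way at 794 ± 67.3 CPM in cDC1 and 1.77 ± 0.507 CPM in B cells.

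Shares of library counts, taken of all counts of a library without TMM factors, differed between the sorts as well. Genes of the mitochondrial genome took 2.72 ± 0.129% of counts in cDC1 and 3.90 ± 0.241% in B cells, and cytosolic ribosomal protein genes 5.99 ± 0.384% and 7.43 ± 0.219%, in that order (SD, n = 4 each). For each of the 5 quantities tested the groups did not overlap (exact permutation test, two-sided, p = 0.0286, which is the smallest that 70 assignments allow, and adjusted p = 0.0286 over the 5). The other 3 quantities were the immunoglobulin share above, the share of the 50 highest genes, at 18.0 ± 0.408% in cDC1 and 14.9 ± 0.271% in B cells, and the genes at 1 CPM or more (here without TMM factors), at 14587 ± 116 in cDC1 and 14880 ± 105 in B cells. With TMM factors, the summed level of the 81 cytosolic ribosomal protein genes tested did overlap, at 62408 to 72749 CPM in cDC1 and 67356 to 73499 CPM in B cells. Among mitochondrial genes mt-Co1 had 8673 ± 211 CPM in cDC1 and 9342 ± 829 CPM in B cells (−0.11 ± 0.08, edgeR adjusted p = 0.264, and with the library number as a block −0.10, edgeR adjusted p = 0.0262) and mt-Atp6 had 3886 ± 363 CPM in cDC1 and 5448 ± 339 CPM in B cells (−0.49 ± 0.09). The count of mt-Atp6 was nearly equal to that of Gm10925, a nuclear copy, in every library, so the assignment of reads between the copies is uncertain and they are not separate evidence.

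Survival and stress genes differed as well. Of 15 genes of the BCL2 family 10 were higher in cDC1 and 3 lower. Bcl2, which blocks cell death at mitochondria, stood at 11.3, 11.1, 11.7 and 10.7 CPM in cDC1 and 125, 119.5, 119 and 128 CPM in B cells. Pmaip1, which encodes NOXA of the same family, averaged 271 ± 23 CPM in cDC1 and 16.5 ± 3.71 CPM in B cells. Of 15 genes of the unfolded protein response 12 were higher and 1 lower (2 with the 8 WT libraries alone, with or without the library number as a block, or without any one of cDC1 library 4 and B cell libraries 1 and 2), with a median of 0.84. The sensor gene Ern1 averaged 84.7 ± 3.5 CPM in cDC1 and 15.1 ± 1.02 CPM in B cells, and Herpud1 had a log2 fold change of 2.16 ± 0.09. Pdia4, an isomerase gene of the endoplasmic reticulum, averaged 167 ± 15.3 CPM in cDC1 and 589 ± 39.2 CPM in B cells. Hspa1a and Hspa1b, near-identical heat shock genes whose reads cannot be assigned with certainty, had log2 fold changes of 4.04 ± 1.04 and 3.66 ± 1.03. Hspa1a stood at 795, 1128, 1127 and 1111 CPM in cDC1 and 18.8, 57.2, 95 and 82.8 CPM in B cells, so that library 1 was the lowest of both groups.

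Immediate early genes, which respond within minutes to stimulation or to handling of cells, were higher in cDC1 for 11 of 15 and lower for 1, with a median of 1.36. Fos stood at 1191, 699.5, 1009 and 1476 CPM in cDC1 and 232, 105, 198 and 301 CPM in B cells (a log2 fold change of 2.39 ± 0.45, edgeR adjusted p = 0.000173). Atf3 averaged 50.5 ± 27.4 CPM in cDC1 and 1.16 ± 0.684 CPM in B cells. Dusp1 averaged 342 ± 119.6 CPM in cDC1 and 34.5 ± 18.5 CPM in B cells. Egr1 averaged 229 ± 100.5 CPM in cDC1 and 52.2 ± 5.17 CPM in B cells. Egr3, a target of B cell receptor signalling and the lower one, averaged 36.1 ± 11.1 CPM in cDC1 and 92.7 ± 8.67 CPM in B cells. Fosb overlapped between the groups, at 303, 138, 287 and 626 CPM in cDC1 and 119.9, 31, 77.2 and 298 CPM in B cells, and did not pass the test (1.36 ± 0.69, edgeR adjusted p = 0.0875). With the library number as a block it did (1.59, edgeR adjusted p = 0.0076), and without B cell library 4 as well (2.15, edgeR adjusted p = 0.0136). In these genes the libraries with the same number moved together: of the 15, 12 lay above the group mean in both libraries numbered 4 and 13 lay below it in both libraries numbered 2. At 20 CPM or more, the 5 genes that varied most within cDC1 were Nr4a2, Fosb, Atf3, Igha and Egr1.

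**Figure D5:**
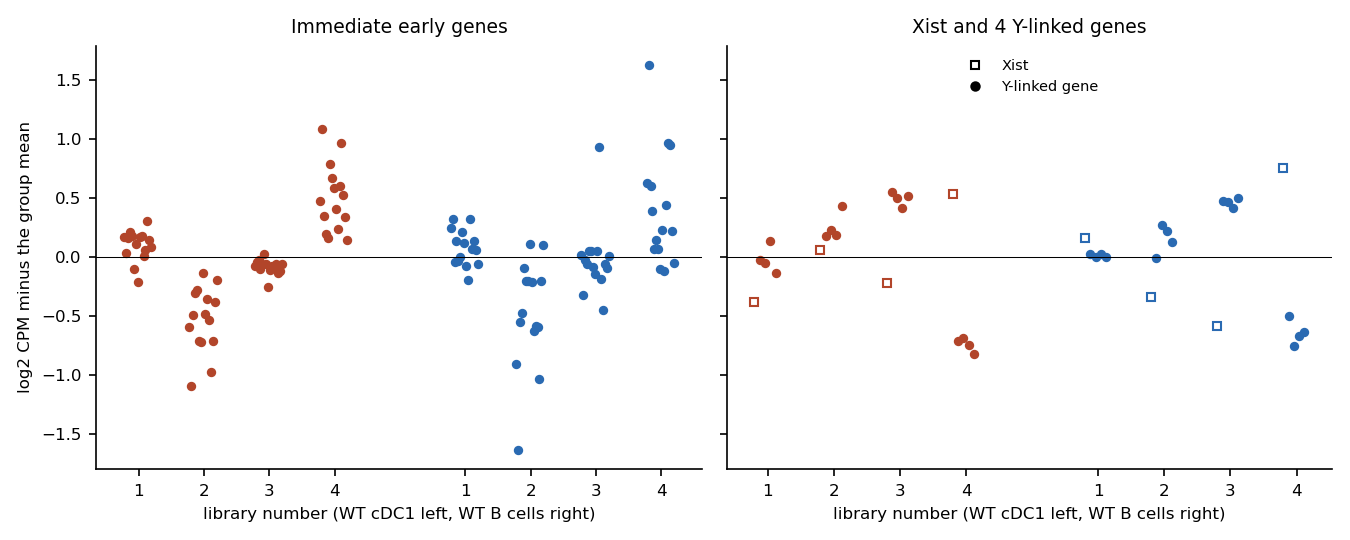
Log2 CPM (prior count 2) minus the group mean for 15 immediate early genes (left) and for Xist and 4 Y-linked genes (right), by library number, with WT cDC1 in red on the left of each panel and WT B cells in blue on the right. Each point is a gene in a library; libraries numbered 4 are high and those numbered 2 low for most immediate early genes in both cell types, and libraries numbered 4 are high in Xist and low in the Y-linked genes.

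Among the highest genes were some that did not pass the test and lay within 0.1 on the log2 scale. Eef1a1, a translation factor, had 10947, 10273, 9663 and 9708 CPM in cDC1 and 11034, 10531, 10611 and 9911 CPM in B cells (−0.05 ± 0.08, edgeR adjusted p = 0.583). Ptprc, which encodes the leukocyte antigen CD45, had 1455 ± 19.7 CPM in cDC1 and 1557 ± 52.7 CPM in B cells (−0.10 ± 0.09, edgeR adjusted p = 0.323, and with the library number as a block −0.10, edgeR adjusted p = 0.0248). Both were lower in cDC1 without scaling factors, at −0.26 and −0.31.

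Protein-coding genes were also grouped by the letters before the first digit of their symbols, and groups of 10 or more were ranked by the share at least 2-fold higher minus the share at least 2-fold lower. The 3 that leaned most to cDC1 were Clec, Ccl and Rgs. Of 20 Clec genes, which encode C-type lectins, 13 were at least 2-fold higher and 2 at least 2-fold lower, and of 12 Ccl genes, which encode chemokines, 6 and 0. Rgs genes, which shorten signals of G proteins, had 9 and 3 of 14. Those that leaned most to B cells were AC and, level with each other, Traf and Gbp. Of 10 Traf genes, adaptors of tumour necrosis factor receptors, 1 was at least 2-fold higher and 5 at least 2-fold lower, and of 10 Gbp genes 1 and 5. AC gathers names that do not mark a family of related genes.

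The contrast was repeated in the 8 libraries of cDC1 and B cells labelled March1-/-. Counts over March1, the targeted gene, were 259, 267, 253 and 272 CPM in the cDC1 libraries and 149, 171, 148 and 134 CPM in the B cell libraries of that label. The targeted gene was therefore not near 0 there; the labels do not say which exons are deleted, so the count of all exons together does not check the genotype. In these libraries, which are not shared with the WT contrast but entered the same fit, 13384 genes were called (71.5%). Of the genes higher in WT cDC1 92.5% were called higher in cDC1 labelled March1-/-, and of those lower 88.9% were called lower. Of 6220 genes called with at least 2-fold difference in WT, 6012 (96.7%) were called in the same direction, and 23 genes of any size were called in opposite directions. By the interaction term of the same fit, the size of the difference was called different between WT and March1-/- labels for 441 of 18710 genes. Whether the genotype, or carried-over cells or RNA, lay behind this was not tested. Cr2 was at 36.2 CPM in cDC1 and 1399 CPM in B cells labelled March1-/-, and its log2 fold change of −5.27 there stood apart from that in WT, the difference of WT minus March1-/- being −2.18 ± 0.21 (edgeR adjusted p = 3e-06). For Pax5, at 17.7 CPM in cDC1 and 964 CPM in B cells labelled March1-/-, that difference was −1.52 ± 0.19 (edgeR adjusted p = 5.65e-05), and for Xcr1 it did not pass the test (0.62 ± 0.19, edgeR adjusted p = 0.104).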

How the data were processed

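Counts per gene and library are the authors' deposited values, whole numbers with no normalization, and each equals the sum of 2 lane tables. Per the submitters' processing notes, the tools were STAR, Subread, CASAVA, FastQC, limma and edgeR, with no versions, and the genome was GRCm38 (mm10). Whether counting used strand is not stated there. Symbols and positions came from GENCODE M21, which held 28290 of 28338 gene IDs. Promoters came from RefSeq, GRCm38.p6.

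The test was edgeR 4.0.16 (R 4.3.3) with TMM factors, edgeR's filter on low counts by group and a robust quasi-likelihood fit over all 20 libraries in 5 groups, with the contrast of WT cDC1 minus WT B cells. It was tested on simulated data with changes placed between these groups, where 47 of 50 genes changed 1.5-fold and 50 of 50 changed 2-fold were recovered, with 9 false calls among 18161 genes. The simulation gave all genes a common spread and changed only a few genes, none of them at low counts. It does not cover genes at low counts or a contrast in which most genes differ. With 22491084 to 32751804 counts per library, 3 counts in a library correspond to 0.0916 to 0.129 CPM in the 8 WT libraries; intervals and floors cover counting error only. Library shares were compared with an exact permutation test, two-sided.

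The members and gene lists were chosen with earlier results of these data known. Genes were named as the 12 largest changes each way at 20 CPM or more without overlap, up to 4 list members each way at 10 CPM or more, the 8 highest genes of each group, the 10 highest genes that were not called and lay within 0.1 on the log2 scale, the 5 most variable genes of each group, and the markers; the text gives a subset of these (some genes are not reported here), with Il12a, Cd86, Cd33, Notch1, H2-DMa, H2-DMb1 and H2-Oa added after their values were seen. Same-numbered WT cDC1 and B cell libraries deviated together from their group means (r = 0.166, 0.258, 0.273 and 0.614 over 10366 genes). Some libraries with different numbers did so to a like degree. For cDC1 library 1 with B cell library 2 r was 0.18, and for cDC1 library 2 with B cell library 3 it was 0.205. Even so, each B cell library had its highest r with the cDC1 library of the same number. The cDC1 libraries did likewise, except library 1. The link was strongest for number 4. The number was used as a block from the data and not from the labels. The alternatives were 4 other scalings, 2 filters, the 8 WT libraries alone, limma-voom (limma 3.58.1), DESeq2 1.42.0, the library number as a block and each WT library left out. More than 10% of exon bases are shared with another gene for Bcar3, Cd9, Ccr9, Tap2, Rab43, Cd274, Cd72, Cxcl16, Flt3l, Rac1, Hvcn1, Alox5ap, Gbp7, Gbp6, H2-DMa, H2-Oa and Hspa1a, so that their counts are uncertain.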

Additional observations from a re-analysis of the deposited data

Results flagged for a closer look

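The highest or lowest of 4 libraries stood apart from the other 3 by more than Dixon's 95% limit in 26 of 396 group values tested, and chance gives about 1 in 20. Values are in CPM, with the other 3 libraries' range in brackets. In WT cDC1 library 1 these were Il12b at 34.2 (45.6 to 47.9), H2-DMb2 at 307 (246 to 250), Clec7a at 37 (22.8 to 24.4), Myo1e at 5.34 (3.24 to 3.46), Hspa1a at 795 (1111 to 1128), Hspa1b at 816 (1139 to 1204) and Dtx1 at 20.5 (8.87 to 9.72). The share of counts of cytosolic ribosomal protein genes was 6.57% in that library, with 5.77 to 5.82% in the others. In WT cDC1 library 2 this was Tnfrsf13c at 4.11 (2.8 to 3). In WT cDC1 library 4 these were Flt3 at 808 (784 to 786), H2-K1 at 1580 (1433 to 1458) and Egr3 at 52.6 (29.5 to 32.1). In WT B cells library 1 these were Cd81 at 164 (139 to 141), H2-Ob at 572 (647 to 652), Dnase1l3 at 54.3 (46.3 to 47), Havcr2 at 0.406 (1.47 to 1.58), Cd86 at 56.4 (49.2 to 49.5), Hk3 at 1.07 (1.29 to 1.33) and Jchain at 141 (320 to 351). In WT B cells library 2 these were Gp2 at 0 (0.029 to 0.0316) and Ptprc at 1636 (1526 to 1533). In WT B cells library 3 these were Cd74 at 5964 (6087 to 6099) and Plin2 at 8.85 (6.13 to 6.42). In WT B cells library 4 these were Ddx58 at 109 (103 to 104), Tnfrsf13c at 220 (236 to 238) and Fscn1 at 3.16 (3.4 to 3.44).

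The log2 fold change of cDC1 over B cells differed between WT libraries and libraries labelled March1-/- for 36 of 193 genes in the text, by edgeR's quasi-likelihood test of the interaction (adjusted p after Benjamini and Hochberg). Over all genes tested it differed for 441 of 18710. Many genes in the text were chosen for large differences in WT, so their share and direction rest in part on that choice. The part of carried-over cells or RNA in these differences was not tested. The values below are differences of WT minus March1-/-, with the log2 fold changes in March1-/- and in WT in brackets. Lower in cDC1 in both genotypes, and further apart in WT, were Cd79a −0.91 (−6.41 and −7.32), Pax5 −1.52 (−5.77 and −7.28), Cr2 −2.18 (−5.27 and −7.45), Edaradd −1.84 (−5.55 and −7.40), Fcrl5 −1.58 (−5.73 and −7.31), Cxcr5 −1.24 (−5.94 and −7.18) and Nebl −2.73 (−4.41 and −7.14). The same held for Bcar3 −1.41 (−5.70 and −7.11), Blk −1.46 (−5.63 and −7.09), Irf4 −0.70 (−1.92 and −2.63), Ebf1 −1.45 (−5.61 and −7.07), Pou2af1 −1.37 (−5.63 and −7.01), Blnk −1.11 (−4.39 and −5.50) and Bank1 −0.89 (−4.75 and −5.64). The same held for Ifi206 −0.82 (−5.18 and −6.00), S1pr1 −1.41 (−5.42 and −6.84), S1pr3 −2.54 (−4.40 and −6.93), Ackr2 −1.46 (−5.22 and −6.67), Tnfrsf13c −0.57 (−5.62 and −6.19), Il9r −1.52 (−3.88 and −5.40) and Eno1 −0.50 (−0.57 and −1.07). The same held for Scd1 −1.11 (−4.78 and −5.88) and Dtx1 −1.65 (−3.39 and −5.04). Lower in cDC1 in both genotypes, and further apart in March1-/-, were H2-Ob 0.41 (−0.96 and −0.55), Atp6v0a1 0.62 (−1.41 and −0.79) and Egr3 1.51 (−2.87 and −1.36). Higher in cDC1 in both genotypes, and further apart in WT, were March1 0.41 (0.80 and 1.22), Irf7 0.47 (1.75 and 2.22), Cxcl16 0.88 (6.74 and 7.63) and Tspan33 1.05 (6.03 and 7.08). Higher in cDC1 in both genotypes, and further apart in March1-/-, were Flt3 −0.90 (7.57 and 6.67), Myo1f −0.65 (4.32 and 3.67), Cd209a −1.48 (5.30 and 3.82), Cd9 −0.76 (2.83 and 2.07), Asb2 −1.14 (4.10 and 2.96) and Cd33 −1.34 (5.24 and 3.90). The edgeR adjusted p of these interaction terms ran from 2.05e-07 to 0.0446.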

How the results depend on the processing

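No fold change of a gene in the text that passed the test changed sign under the alternatives run. The balance of all calls, 6526 higher and 6772 lower in cDC1, turned to 6678 and 6544 with RLE factors, 7321 and 7258 with no filter on low counts and 6663 and 6489 by DESeq2. The count of 13298 genes called ran from 12046 (filter of 1 CPM in 4 libraries) to 14579 (no filter on low counts) over 10 alternatives, with 13971 under the replicate block, 13294 by limma-voom and 13152 by DESeq2, and from 12891 to 13045 with each WT library left out. The 5 library quantities kept their values, as differences of cDC1 minus B cells, but not their p. Paired by number, sign flips allow no p below 0.125, which all 5 reached: mitochondrial genes −1.18 percentage points, ribosomal protein genes −1.44, immunoglobulin genes −1.97, the 50 highest genes 3.18 and genes at 1 CPM or more −294. With 1 library left out, 0.0571 is the smallest exact permutation p, which all reached, at −1.26 to −1.07, −1.63 to −1.34, −2.07 to −1.92, 2.99 to 3.31 and −348 to −243, in the same order. Over the 193 genes in the text and these settings, 1915 fold changes kept their side of the threshold, 14 came past it and 1 no longer passed; with a library left out, 1543 kept it and 1 came past it. H2-K1, mt-Co1, Notch2, Eef1a1 and Ptprc were lower in cDC1 without scaling factors, and H2-K1, mt-Co1 and Ptprc also with upper quartile factors. Taking the 1000 largest differences each way turned the order of the interferon element and ETS-IRF composite shares and narrowed the PU.1 and Ebf1 site differences, by the values given beside them. The block was fitted to the 8 WT libraries alone and changed no call beyond those given beside each result. Genes at a few counts in 1 group, such as Gp2, Cd207 and Il12b in B cells, are limited by depth. The cause of these changes was not tested.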

Other observations

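Libraries numbered 3 and those numbered 4 deviated together also in genes of the sex chromosomes. Xist went opposite ways in the other numbers, at −0.38 in cDC1 and 0.16 in B cells numbered 1. In number 2 it stood at 0.06 in cDC1 and −0.34 in B cells. Relative to the group mean of log2 CPM (prior count 2), Xist stood at 0.54 in cDC1 and 0.76 in B cells numbered 4, and at −0.22 in cDC1 and −0.58 in B cells numbered 3. The Y-linked gene Uty stood at −0.82 in cDC1 and −0.63 in B cells numbered 4, and at 0.52 in cDC1 and 0.50 in B cells numbered 3. Ddx3y, Eif2s3y and Kdm5d were likewise lowest in number 4 and highest in number 3 in both cell types.

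The heat shock gene Hsph1 stood at −0.37 in cDC1 and −0.33 in B cells numbered 1, and at 0.43 in cDC1 and 0.53 in B cells numbered 3.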
